A study of Mus musculus with 8 samples.

Results

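Of 40 genes of DNA replication and mitosis chosen for this description, 38 were measured, among 22180 mouse genes with a probe set of their own. They fall into a replication group of 18 genes, of which 17 were measured, and a mitosis group of 22, of which 21 were measured. Each gene was read from the probe set with the highest mean among those mapped to its symbol alone. Ccne2 had only a probe set shared with Ints8, and Ccnb1 was not analysed here. The cells were mouse embryonic fibroblasts (MEFs), labelled as primary, without a working gene for STING, the endoplasmic reticulum adaptor through which the cytosolic DNA sensor cGAS switches on type I interferon. All 4 lines shared the STING-/- background. They carried pBabe, a retroviral vector, without an insert (vector cells), human STING (hSTING), N154S, which the series names as a mutant of SAVI, an autoinflammatory disease, or R284S, which it calls a variant. Each line gave 1 control array and 1 array after double-stranded DNA (dsDNA) with Lipofectamine 2000 for 9 h, so there were no replicates, and the labels do not say whether control cells received the reagent alone. Each line was a single cell population, so a difference between lines includes any other difference between the populations. The p-values measure only the spread that the fits leave among these arrays, not the spread between replicate cultures.

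A cell copies its DNA in S phase and divides the copies in mitosis, and different genes are switched on for each task. Replication genes, many of them targets of E2F factors, are induced as cells leave G1. Mitosis genes are held down in resting and G1 cells by the DREAM complex and induced later, in G2 and M, by the MuvB core with B-MYB and FOXM1. Both work through an element called the cell cycle genes homology region (CHR), often beside CCAAT boxes bound by the factor NF-Y. In bulk RNA, fewer dividing cells and less RNA per dividing cell cannot be told apart.

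All values are log2 array signals, and differences are differences of log2 signal. The 38 genes read between 4.53 and 9.71, and all 38 lay at or above the median of the named genes, 4.42 to 4.47, on all 8 arrays. Fibroblast markers were bright on every array (9 of 9 measured at or above that median). Of the markers of other cell types, 1 of 6 for macrophages, 1 of 4 for epithelium, 0 of 4 for endothelium and 1 of 3 for skeletal muscle reached it on every array. The endogenous Sting1 read 3.68 to 4.22, and since the sources used here do not say which part was deleted, the labels cannot be checked by it. The median difference of all genes from the vector control array lay between -0.02 and 0.01 on the other arrays.

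The promoters of the 2 groups differ in the letters they carry, and 5 are shown as examples. They are Ccnb2, Cenpa and Cdc20 from the mitosis group, and Mcm6 and Rrm1 from the replication group. Of these genes only Ccnb2 and Cenpa passed the adjusted threshold in the main fits below, and other genes that passed are not shown. Each stretch of 150 bases runs from 120 before to 30 after the RefSeq start in GRCm38.p6, 5′ to 3′ on the gene's strand. Ccnb2 is at chr9:70421525-70421674 on the minus strand, Cenpa at chr5:30666766-30666915 on the plus strand and Cdc20 at chr4:118437314-118437463 on the minus strand. Mcm6 is at chr1:128359676-128359825 on the minus strand and Rrm1 at chr7:102441575-102441724 on the plus strand. Capitals mark matches that lie whole within the stretch, on either strand, to a searched motif. CCAAT reads ATTGG on the other strand. The CHR was searched as TTTGAA and, with its middle letter changed, as TTCGAA. E2F letters were searched as TTCCCGC and in 3 further forms, of which the first is TTCGCGC, the next is spelled TTGCCGC, and the last is written as TTGGCGC.
Ccnb2: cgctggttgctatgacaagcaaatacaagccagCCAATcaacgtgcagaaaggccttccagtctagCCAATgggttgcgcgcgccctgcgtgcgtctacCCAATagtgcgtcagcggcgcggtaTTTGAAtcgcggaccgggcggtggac
Cenpa: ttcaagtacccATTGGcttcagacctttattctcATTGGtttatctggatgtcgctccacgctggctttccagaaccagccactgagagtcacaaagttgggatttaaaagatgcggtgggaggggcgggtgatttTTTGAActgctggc
Cdc20: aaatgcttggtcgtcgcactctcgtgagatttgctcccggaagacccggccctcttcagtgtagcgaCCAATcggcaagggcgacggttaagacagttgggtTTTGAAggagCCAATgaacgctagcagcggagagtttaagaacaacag
Mcm6: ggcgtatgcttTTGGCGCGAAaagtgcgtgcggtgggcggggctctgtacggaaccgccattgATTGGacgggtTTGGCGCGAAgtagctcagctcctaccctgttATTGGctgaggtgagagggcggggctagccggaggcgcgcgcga
Rrm1: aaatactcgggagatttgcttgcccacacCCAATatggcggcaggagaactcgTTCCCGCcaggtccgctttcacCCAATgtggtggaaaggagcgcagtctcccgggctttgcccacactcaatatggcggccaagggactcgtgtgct
The 3 mitosis promoters each carry CCAAT letters and 1 CHR match near the start, at position -18 in Cdc20 and at position 17 in Cenpa, counted from 1 at the start. Mcm6 carries no CHR letters in this stretch, and each of its 2 long capital runs holds a pair of overlapping E2F matches on opposite strands.

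RefSeq promoters were found for 29 of the measured genes, 16 mitosis genes with 16 promoters and 13 replication genes with 14, since Mcm7 has 2. No entry was found for Aurkb, Ccna2, Cdc25c, Kif20a, Tpx2, Ccnd1, Gins1, Gins2 and Mcm4. Searched over 300 bases (250 before to 50 after the start), CHR letters occurred in 14 of 16 mitosis promoters (87.5%), in 3 of 14 replication promoters (21.4%) and in 19.2% of all 32851 promoters. Birc5 and Cenpe were the mitosis promoters without them. CCAAT letters occurred in 15 of 16 (93.8%), 10 of 14 (71.4%) and 37.4%, and E2F letters in 2 of 16 (12.5%), 8 of 14 (57.1%) and 9.57%. In the 250 bases before the start alone, CHR letters were in 7 of 16 mitosis promoters (43.8%) and in 17.1% of all, so the other 7 carried them only where the window takes in the 50 bases after the start. In a window from 40 before to 50 after the start, chosen after the positions were seen, they were in 13 of 16 mitosis promoters, 1 of 14 replication promoters and 4.74% of all. A match describes these letters and is not a binding site. Median GC content was similar, at 57.9% for mitosis and 57.5% for replication promoters, against 52.7% for all.

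In control cells, the mitosis genes of the hSTING line lay close to the vector level, whereas all 21 lay lower in the N154S line and all 21 in the R284S line. Their median difference from vector control was 0.03 for hSTING, -0.39 for N154S and -0.63 for R284S. The replication medians were 0.12, 0.13 and -0.17, with 1, 6 and 13 of the 17 genes below vector control, so that in R284S most replication genes were lower too, by less. The mitosis median minus the replication median was thus -0.09 in hSTING, -0.52 in N154S and -0.46 in R284S control cells. Each of the 21 mitosis genes lay below the replication median in both mutant lines, and 12 of the 17 replication genes lay above the highest mitosis gene in each of them. With 1 array per line and treatment these differences have no replicate check.

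**Figure D1:**
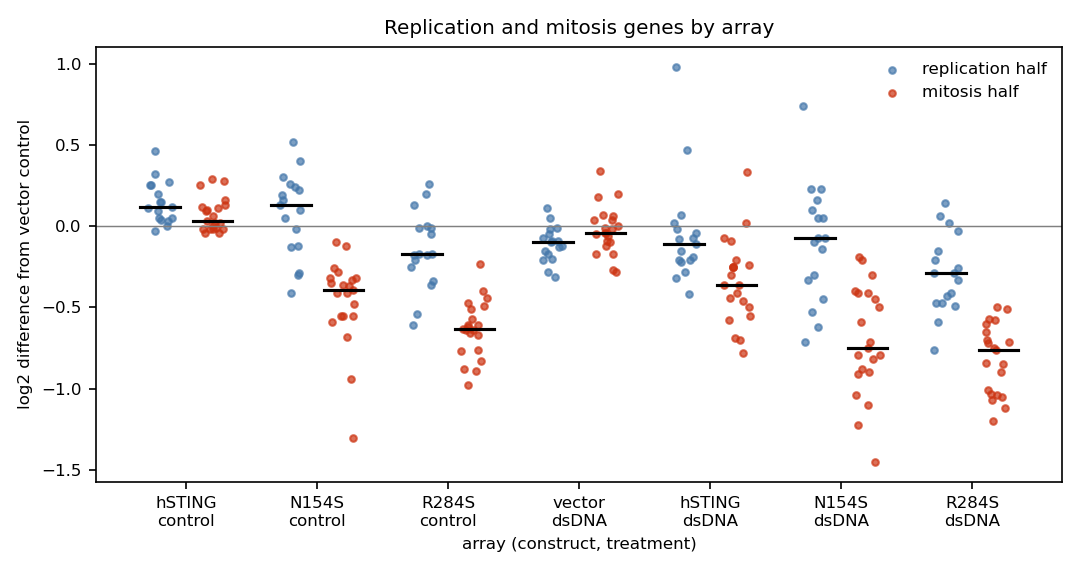
Difference from the vector control array (y axis, log2 signal) for each replication gene (blue) and mitosis gene (red) on the other 7 arrays (x axis, construct and treatment), with bars at the medians. The mitosis medians are -0.39 and -0.63 in N154S and R284S control cells and -0.75 and -0.76 after dsDNA, while the replication medians lie between -0.29 and 0.13.

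After dsDNA the separation was present in 3 lines and not in vector cells. Relative to vector control, the mitosis median was -0.04 in dsDNA-treated vector cells, -0.36 in hSTING, -0.75 in N154S and -0.76 in R284S cells, and the replication medians were -0.10, -0.11, -0.07 and -0.29. The difference of the medians, mitosis minus replication, was therefore 0.06, -0.25, -0.68 and -0.47. All 4 arrays of the mutant lines lay below both vector arrays for 20 of the 21 mitosis genes, the exception being Aurkb, and for 4 of the 17 replication genes, Gins1, Gins2, Rrm1 and Tyms. Among the 10156 genes at or above the median on every array this order held for 20.5%, so the replication count is near the background. The dsDNA-treated hSTING array took an intermediate place, below the 2 vector arrays and hSTING control and above all 4 mutant arrays, for 13 of 21 mitosis and 2 of 17 replication genes, against 3.19% of those 10156 genes.

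**Figure D2:**
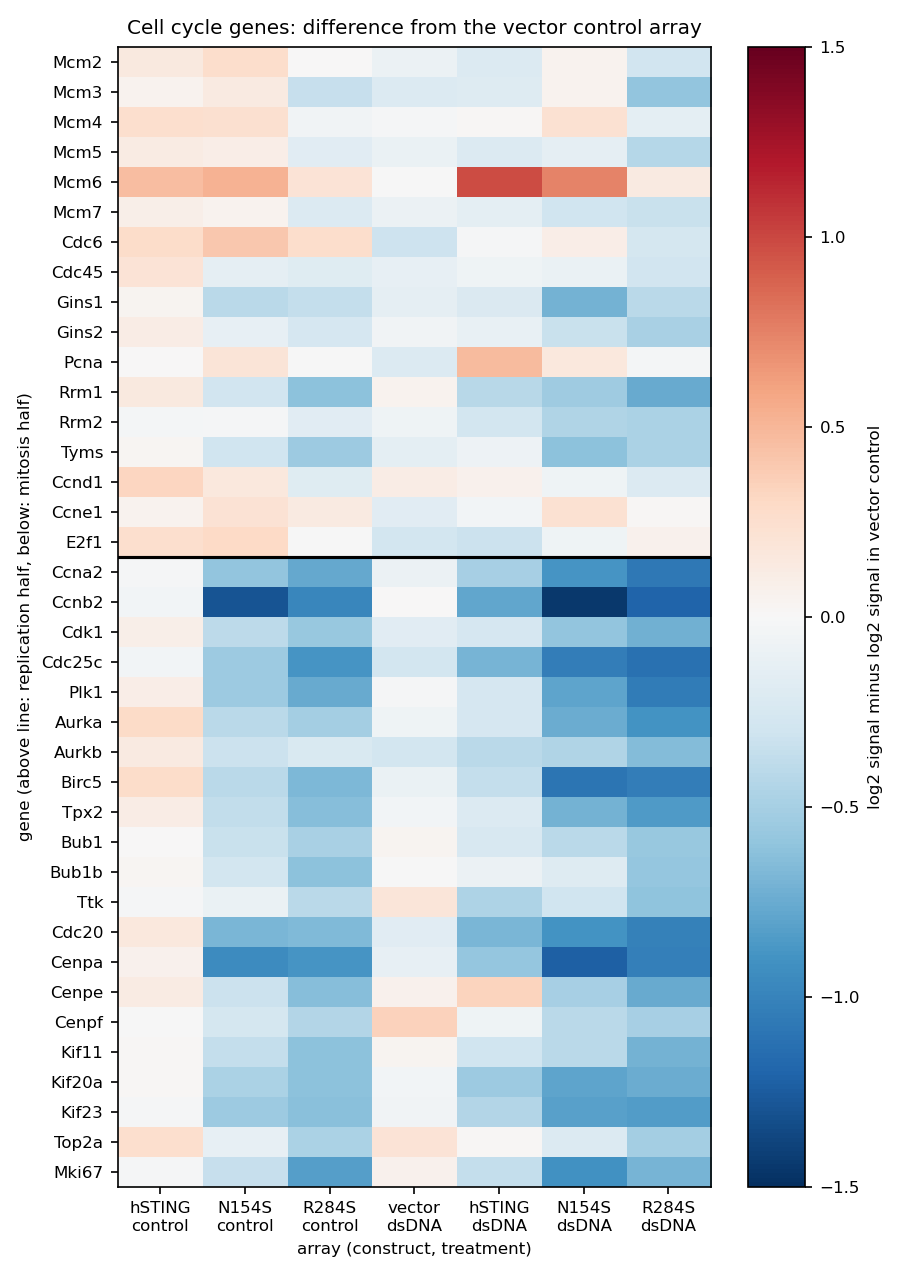
Difference from the vector control array (colour, log2 signal, red higher and blue lower) for each of the 38 genes (rows, replication above the line and mitosis below) on the other 7 arrays (columns). The 4 mutant columns are blue for every mitosis gene, with the lowest value in Ccnb2 at -1.45, while Mcm6 is red on both hSTING arrays and both N154S arrays.

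Among the mitotic cyclins, their kinase and its phosphatase, Ccnb2 had the largest and Cdk1 the smallest fitted difference between each mutant line and vector cells. Ccnb2, cyclin B2, a mitotic partner of CDK1, read 8.42 in vector, 8.38 in hSTING, 7.12 in N154S and 7.44 in R284S control cells, and after dsDNA 8.42, 7.64, 6.97 and 7.22 in the same order. Both vector arrays and the hSTING control thus stood together at the top, the 4 mutant arrays at the bottom and dsDNA-treated hSTING between them. Ccna2, cyclin A2, used in S phase and G2, read 8.49, 8.47, 7.90 and 7.72 in control cells and 8.40, 7.99, 7.61 and 7.42 after dsDNA. Cdc25c, the phosphatase that activates CDK1, read 5.75, 5.71, 5.20 and 4.87, and 5.48, 5.05, 4.71 and 4.63. The arrays of the mutant lines did not overlap those of the vector line for either gene. Cdk1 itself read 7.88 and 8.05 in vector cells and 7.33 to 7.66 in the mutant lines.

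Among the mitotic kinases and their partners, Plk1, polo-like kinase 1, which acts at centrosomes and kinetochores, read 8.56, 8.66, 8.01 and 7.80 in vector, hSTING, N154S and R284S control cells and 8.54, 8.31, 7.77 and 7.51 after dsDNA. Tpx2, the spindle assembly factor that activates Aurora A, read 8.62, 8.73, 8.25 and 7.98, and 8.58, 8.41, 7.91 and 7.77. For both genes the 4 mutant arrays were the lowest and the 4 others did not overlap them. Aurka, the kinase Aurora A, ranged from 6.73 to 7.22 in the mutant lines against 7.57 and 7.63 in vector cells. Birc5, survivin, a subunit of the chromosomal passenger complex, ranged from 5.38 to 6.07 against 6.38 and 6.48. Aurkb, the kinase of that complex, was the gene whose ranges overlapped: it read 7.61 in dsDNA-treated vector cells and 7.66 in R284S control cells.

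At the kinetochore, Cenpa, the histone variant that marks the centromere, read 7.37, 7.43, 6.43 and 6.48 in control cells and 7.25, 6.79, 6.15 and 6.34 after dsDNA, an order like that of Ccnb2. Cenpe, a kinetochore motor, differed from it in the hSTING line, reading 6.69, 6.81, 6.37 and 6.05 in control cells and 6.75, 7.02, 6.19 and 5.93 after dsDNA. Its highest value was in dsDNA-treated hSTING cells, where most mitosis genes were lower than in hSTING control. Cdc20, the activator of the anaphase-promoting complex, read 8.27, 8.43, 7.59 and 7.61, and 8.10, 7.58, 7.37 and 7.26, so that dsDNA-treated hSTING cells reached the level of the untreated mutants. The checkpoint genes Bub1, Bub1b and Ttk, the kinetochore gene Cenpf, the kinesins Kif11, Kif20a and Kif23, the DNA-untangling enzyme Top2a and the proliferation marker Mki67 were lower on all 4 mutant arrays than on both vector arrays. Their differences from vector control in control cells ran from -0.10 (Ttk) to -0.55 (Kif23) in N154S and from -0.40 (Ttk) to -0.83 (Mki67) in R284S.

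The replication genes differed among themselves, also within a role. Mcm6, a subunit of the MCM helicase that opens the DNA, read 8.0 in vector, 8.46 in hSTING, 8.52 in N154S and 8.20 in R284S control cells, and 7.99, 8.98, 8.74 and 8.14 after dsDNA. Both vector arrays were the lowest of the 8. The other 5 MCM genes stayed between -0.34 and 0.26 of vector control on the control arrays. The 6 MCM genes had a median of 0.18 in N154S, with 6 of 6 above vector, and of -0.11 in R284S, with 4 of 6 below. Pcna, the sliding clamp of the DNA polymerases, read 9.24, 9.24, 9.43 and 9.23, and 9.04, 9.71, 9.40 and 9.21, so that its highest value too was in dsDNA-treated hSTING cells.

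Among the genes of nucleotide supply, Rrm1 and Tyms lay lower on all mutant arrays than on both vector arrays, and Rrm2 did not. With Gins1 and Gins2 they are the 4 of 17 replication genes in that order. This is near the 20.5% of genes at or above the median on every array that share it. Rrm1, the large subunit of ribonucleotide reductase, read 9.39, 9.54, 9.10 and 8.78 in vector, hSTING, N154S and R284S control cells and 9.44, 8.97, 8.86 and 8.63 after dsDNA. Its mutant arrays did not overlap its vector arrays. Tyms, thymidylate synthase, behaved likewise, at 5.54 and 5.69 in vector cells and 5.07 to 5.39 in the mutant lines, though a pseudogene carries a near-identical sequence and the reading is uncertain to that extent. Rrm2, the small subunit, read 8.62 and 8.69 in vector cells and 8.67 in N154S control cells, an overlap. Gins1, part of the active helicase, read 5.24, 5.28, 4.83 and 4.88, and 5.11, 5.02, 4.53 and 4.83. Its partner Gins2 read 7.37 and 7.42 in vector cells and 6.93 to 7.30 in the mutant lines. The G1/S regulators Ccnd1, Ccne1 and E2f1 lay between -0.18 and 0.32 of vector control in the control cells of the 3 STING lines, and Cdc6 and Cdc45, which load and start the helicase, between -0.18 and 0.40.

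Across both treatments, differences between lines were fitted with limma with construct and treatment as additive terms. Any unequal dsDNA effect among the lines stays in the residual of this fit. Its test is two-sided, with p adjusted by Benjamini-Hochberg over all genes and a threshold of 0.05. In N154S against vector cells, 2 mitosis genes fell: Ccnb2 by 1.38 (SE 0.19, adjusted p = 0.0245), which is 2.6-fold, and Cenpa by 1.02 (SE 0.16, adjusted p = 0.0352). No replication gene passed, and 0.609% of all genes fell in this comparison. In R284S against vector cells, 6 mitosis genes and 0 replication genes fell, against 1.02% of all genes. They were Ccnb2 by 1.09 (SE 0.19, adjusted p = 0.039), Plk1 by 0.90 (SE 0.13, adjusted p = 0.0221), Cenpa by 0.90 (SE 0.16, adjusted p = 0.0426), Ccna2 by 0.88 (SE 0.13, adjusted p = 0.0259), Cdc25c by 0.86 (SE 0.14, adjusted p = 0.0363) and Tpx2 by 0.72 (SE 0.13, adjusted p = 0.0435). The nearest genes outside the threshold were Ccna2 in N154S (-0.69, adjusted p = 0.0689) and Kif23 in R284S (-0.71, adjusted p = 0.0509). These calls depended on which lines were in the fit. With the N154S arrays left out, 0 of the 6 R284S calls remained (adjusted p 0.0781 to 0.12). With the R284S arrays left out, Cenpa no longer passed in N154S (adjusted p = 0.0608). Leaving out the hSTING arrays raised the counts of mitosis genes to 4 in N154S and 10 in R284S, and Rrm1 then passed in R284S (-0.71, adjusted p = 0.0465).

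**Figure D3:**
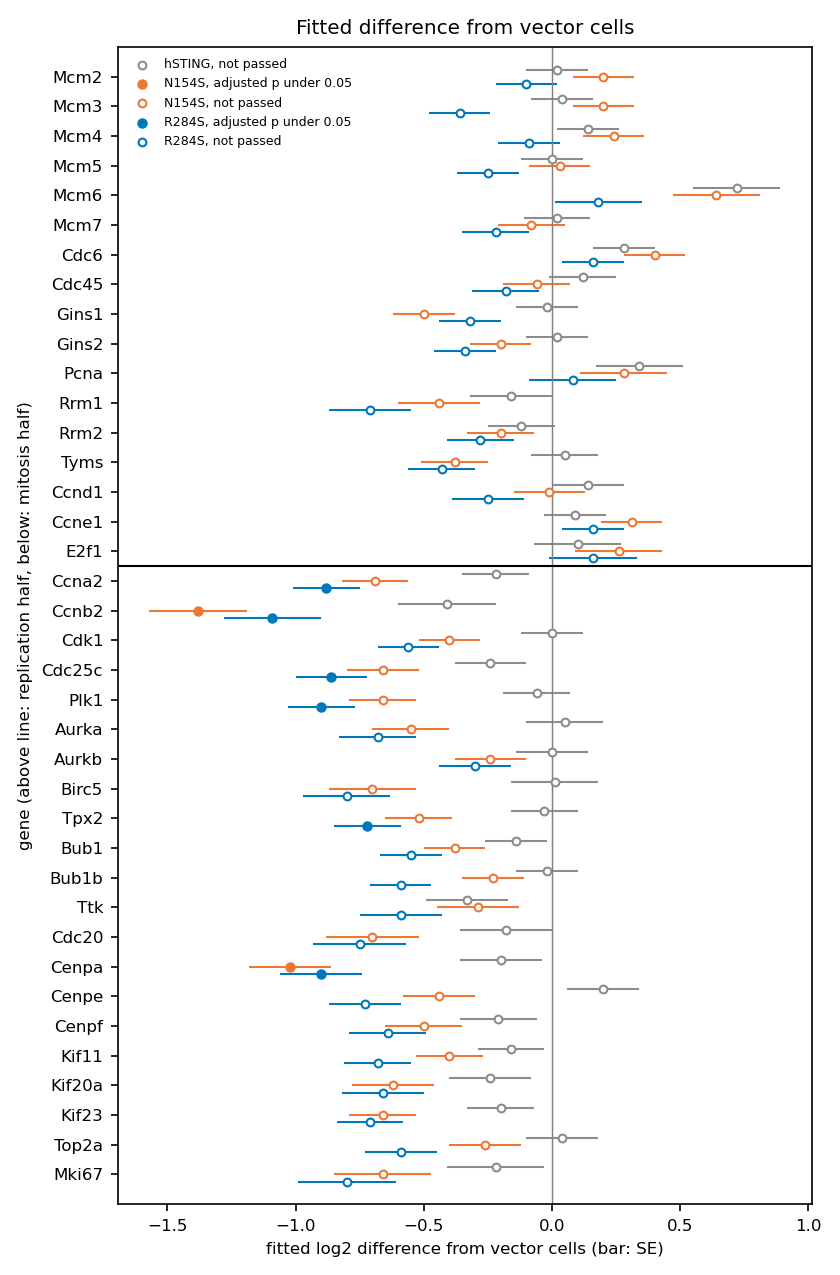
Fitted difference from vector cells (x axis, log2 signal, bars are the SE of the fit) for each gene (y axis, replication above the line and mitosis below) in hSTING (grey), N154S (orange) and R284S (blue) cells, with 2 arrays per line. Filled points passed the adjusted threshold, 2 mitosis genes in N154S and 6 in R284S, and the replication points lie on both sides of 0.

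At an unadjusted p under 0.05 the mitosis group was lower nearly throughout. In N154S against vector, 17 of 21 mitosis and 3 of 17 replication genes were lower, against 7.99% of all genes, and in R284S 20 of 21 and 5 of 17, against 6.8%. The fitted medians were -0.55 and 0.03 in N154S and -0.71 and -0.23 in R284S, with 0.01 for all genes in both. The replication genes lower in N154S were Gins1 (-0.50), Rrm1 (-0.44) and Tyms (-0.38), and 3 others were higher at that level, Mcm6 (0.64), Cdc6 (0.40) and Ccne1 (0.31), against 6.87% of all genes. None of these 6 passed the adjusted threshold (adjusted p from 0.132 to 0.286). In hSTING against vector cells, 0 mitosis and 0 replication genes were lower, against 4.82% of all genes, and Mcm6 alone was higher (0.72, SE 0.17, adjusted p = 0.355), against 4.46%. The fitted medians there were -0.16 for mitosis and 0.05 for replication genes.

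By size in the control arrays alone, 7 of 21 mitosis and 0 of 17 replication genes were lower by 0.5 or more in N154S than in vector cells, against 6.19% of the genes counted. In R284S they were 16 of 21 and 2 of 17, against 6.62%, and in hSTING 0 and 0, against 1.42%. At a difference of 1 or more, which is 2-fold, Ccnb2 in N154S was the only member (0.785% of genes), and there was none in R284S (1.39%).

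Set against the hSTING line, which also carried a STING construct, both mutants again read lower in the mitosis group by median. In R284S the replication group was lower too, by less, with 15 of 17 genes below 0 in the fit. In R284S against hSTING, Cenpe fell by 0.92 (SE 0.14, adjusted p = 0.038) and Plk1 by 0.83 (SE 0.13, adjusted p = 0.0438), while no replication gene passed and 0.442% of all genes fell. The nearest gene outside was Tpx2 (-0.70, adjusted p = 0.0739). Neither call held without the vector arrays (adjusted p 0.0865 and 0.0721) or without the N154S arrays (0.109 and 0.143), and Plk1 did not pass with all arrays shifted to the same median (0.0516). At an unadjusted p under 0.05, 19 of 21 mitosis and 8 of 17 replication genes were lower, against 5.89%, with fitted medians of -0.57 and -0.26. In N154S against hSTING, limma called 0 genes of any kind, the smallest adjusted p being 0.0709, and at an unadjusted p under 0.05 13 mitosis genes and 2 replication genes, Gins1 and Tyms, were lower, against 4.41%. The medians were -0.44 and -0.08. These comparisons share the arrays of each mutant line with those against vector cells.

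Between the 2 mutant lines, the members with an unadjusted p under 0.05 were mostly MCM helicase genes. No member passed the adjusted threshold between R284S and N154S, where limma called 1 gene higher and 1 lower in all. At an unadjusted p under 0.05, 4 replication genes and 1 mitosis gene were lower in R284S, against 3.39% of all genes. They were Mcm3 (-0.56), Mcm6 (-0.46), Mcm4 (-0.34) and Mcm2 (-0.30), and the checkpoint gene Bub1b (-0.36), with adjusted p from 0.483 to 0.697. Mcm3 read 8.10 and 8.02 in N154S cells and 7.63 and 7.38 in R284S cells, and the vector values of 7.97 and 7.76 lay between. Ccnb2 lay the other way, lower in N154S cells (7.12 and 6.97) than in R284S cells (7.44 and 7.22). It did not reach the unadjusted level either (limma, 0.28, SE 0.19, unadjusted p = 0.17, adjusted p = 0.78).

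The response to dsDNA was compared within each line. In vector cells the mitosis median changed by -0.04 and no gene of either group was lower by 0.5 or more (1.64% of genes). In hSTING cells the median was -0.42, and 8 of 21 mitosis and 2 of 17 replication genes were lower by 0.5 or more, against 10.3% of genes, so that the replication count is near the background. The N154S line had a mitosis median of -0.22, with 2 mitosis and 0 replication genes past 0.5 (3.96%). The R284S line had -0.20, with 0 and 1 (1.41%). The replication medians were -0.10 in vector, -0.25 in hSTING, -0.23 in N154S and -0.11 in R284S cells. In the hSTING line the lowest changes were those of Cdc20 (-0.85) and Ccnb2 (-0.74), while Mcm6 (0.52), Pcna (0.47) and Cenpe (0.21) were the genes higher after dsDNA.

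**Figure D4:**
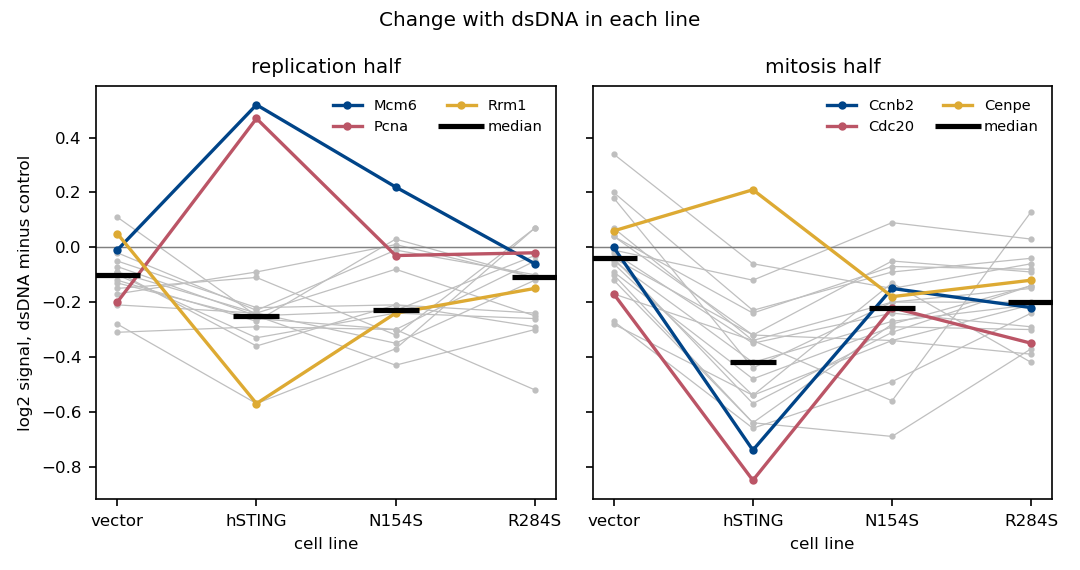
Change with dsDNA (y axis, log2 signal, dsDNA minus control) in each of the 4 lines (x axis), with a thin grey line per gene, coloured lines for the named genes and black bars at the medians, replication genes on the left and mitosis genes on the right. The mitosis median is lowest in hSTING cells at -0.42, where Mcm6 and Pcna stand above 0.

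Averaged over the 4 lines, no gene passed for dsDNA (limma, smallest adjusted p = 0.0586 over all genes and 0.448 over the members). At an unadjusted p under 0.05, 12 of 21 mitosis and 5 of 17 replication genes were lower, against 5.33%, with medians of -0.23 and -0.18, so the 2 groups were closer here than in either mutant line against vector or hSTING cells. The replication genes were Cdc6 (-0.36), E2f1 (-0.29), Rrm2 (-0.26), Mcm2 (-0.24) and Mcm5 (-0.23). Whether the dsDNA effect of the 3 STING lines differed from that of vector cells was tested as an interaction: 0 genes passed, and at an unadjusted p under 0.05 none of the members was lower, against 1.46% of all genes. The hSTING line against the other 3, a fit added after the data were seen, gave 7 genes higher and 0 lower in all, no member among them. At an unadjusted p under 0.05, Ccnb2 (-0.62), Cdc20 (-0.60) and Cenpa (-0.46) were lower, against 4.58% of all genes, and Pcna (0.55) higher, with adjusted p from 0.356 to 0.445. The same fit for the N154S and for the R284S line gave 0 members at either level. The larger mitosis response of hSTING cells is therefore a description of their 2 arrays.

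Further genes of the same programmes, from lists also chosen with earlier results known, split alike, which is no independent check. Of 45 other mitosis genes, 43 were measured. In N154S against vector cells 2 of them fell, Cdkn3, a phosphatase of CDKs (-1.3, adjusted p = 0.0181) and Ube2c, the ubiquitin-conjugating enzyme of the anaphase-promoting complex (-1.08, adjusted p = 0.0208), and 29 were lower at an unadjusted p under 0.05, against 0.609% and 7.99% of all genes. In R284S 6 fell, among them Ube2c (-1.16, adjusted p = 0.0128), Cdkn3 (-1.2, adjusted p = 0.0176) and Prc1, the crosslinker of the central spindle (-1.04, adjusted p = 0.0183), and 35 were lower unadjusted, against 1.02% and 6.8%. Against hSTING, Ube2c fell in R284S (-1.0, adjusted p = 0.0321), as did 0.442% of all genes. Of 30 other replication genes 27 were measured and 0 passed in any of these comparisons, with medians of 0.11 in N154S and -0.10 in R284S against -0.49 and -0.58 for the other mitosis genes. At an unadjusted p under 0.05, 1 of them was lower in N154S and 3 in R284S than in vector cells. In R284S against hSTING, 7 other replication and 27 other mitosis genes were lower at that level, against 5.89% of all genes.

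Regulators of the 2 programmes gave no adjusted call in any comparison of lines, over 21 regulators, 17 of 18 CDK inhibitors and arrest genes, and 7 G1 cyclins and CDKs. At an unadjusted limma p under 0.05, 1 regulator was lower in N154S and 3 in R284S than in vector cells, against 7.99% and 6.8% of all genes. Of the arrest genes, 4 were lower and 1 higher in N154S, and 2 lower and 3 higher in R284S. In R284S against hSTING, 3 regulators were higher and 3 lower, and 5 arrest genes were higher and 1 lower. Of all 22180 genes, 1523 were higher in N154S and 1657 in R284S than in vector cells, and 1730 in R284S than in hSTING. Foxm1, the activator of late mitosis genes, read 7.17 and 6.89 in vector cells, 6.84 and 6.65 in hSTING, 6.81 and 6.05 in N154S and 6.45 and 6.59 in R284S cells (control, then dsDNA). Its fitted difference from vector was -0.60 in N154S and -0.51 in R284S (adjusted p = 0.246 and 0.327). Mybl2, which encodes B-MYB, gave -0.21 and -0.53 (adjusted p = 0.568 and 0.159). Cdkn1a, the CDK inhibitor p21, stayed between 11.51 and 11.85 on all 8 arrays, and its differences were -0.02 and -0.14 (adjusted p = 0.971 and 0.699). The inhibitors Cdkn2a and Cdkn2b, the restraint Rb1, Myc, Ccnd2 and Cdk4 also did not pass, with differences from vector between -0.26 and 0.14 in the mutant lines.

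Interferon response genes and fibroblast markers were read beside the mitosis group. The 8 measured interferon response genes had a median difference from vector control of 4.51 in hSTING, 5.85 in N154S and 5.23 in R284S control cells, and of 2.09, 6.29, 6.17 and 5.33 after dsDNA in vector, hSTING, N154S and R284S cells. In hSTING control cells they were thus high while the mitosis genes lay at 0.03. Fibroblast markers had medians of -0.14, -0.67 and -0.71 in the hSTING, N154S and R284S control cells and of -0.07, -0.42, -0.90 and -0.79 after dsDNA, an order like that of the mitosis genes. Of the 9, Col1a1, Col3a1 and Pdgfrb fell in N154S against vector cells, and these and Thy1 in R284S, against 0.609% and 1.02% of all genes. The part of either list in the mitosis differences was not tested.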

How the data were processed

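Total RNA (300 ng) from 8 samples was prepared for Affymetrix arrays with the GeneChip WT PLUS kit, per the labels' protocols. Affymetrix Expression Console 1.3.1.187 was used, per the submitters' processing notes. The sources used here do not name its algorithm. The deposited log2 values, 41345 probe sets per array, had array medians of 3.79 to 3.85. Arrays compress large differences, and their number limits the precision. Of the probe sets, 23521 had 1 symbol and entered, 1814 had several and 16010 were not named. Fits used limma 3.58.1 in R 4.3.3 (lmFit and eBayes, 3 residual and 4.03 prior degrees of freedom; 2 and 4.16 with an interaction) and were tested on simulated data. Differences of 2 arrays were counted where the brighter array reached the median of named genes. Named are all members, a fixed panel and, of the other lists, up to 3 called genes per direction and comparison; Tk1 and, in R284S, Pdgfrb were named after their values were seen. The members and lists were chosen with earlier results of these data known. Promoters come from RefSeq. Alternatives covered the variance model, dim genes, scaling, probe set choice, gene type and leaving out each line.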

Additional observations from a re-analysis of the deposited data

How the results depend on the processing

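No result changed direction past a threshold under any alternative run; over the fitted and array differences of single members, 1000 values kept their side of the threshold, 57 passed it newly and 22 no longer passed. Counts of calls changed with the variance model, the filter on dim genes and the lines included. For N154S against vector, the 135 genes that fell became 435 with trended, robust variances, 349 with dim genes removed and 0 without moderation, and the 2 mitosis genes became 7, 6 and 0. For R284S against vector, 227 became 462, 372 and 0, the 6 mitosis genes 18, 14 and 0, and the 0 replication genes 1 with trended, robust variances. For R284S against hSTING, 98 became 262, 190 and 0, and the 2 mitosis genes 9, 7 and 0, and 1 with arrays shifted to the same median. Leaving out 1 line at a time, N154S against vector gave 72 to 247 genes and 1 to 4 mitosis genes; R284S against vector gave 79 to 291 genes, 0 to 10 mitosis genes and up to 1 replication gene; R284S against hSTING gave 30 to 46 genes and 0 mitosis genes. In control arrays alone the replication median was 0.13 for N154S (0.03 in the fit) and -0.17 for R284S (-0.23). Other scalings moved the median of all genes by at most 0.035. The cause of these changes was not tested. Without replicate cultures, neither the spread within a line nor the error of a 2-array difference is known.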

Other observations

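Probe sets shared by several symbols were left out of the comparisons, and some carry member genes. The probe set shared by Ccne2, cyclin E2, and Ints8 read 7.11 in vector, 7.12 in hSTING, 7.41 in N154S and 7.10 in R284S control cells, and 7.08, 6.91, 6.88 and 6.91 after dsDNA. A probe set shared by Top2a and Taf1d read 9.65, 10.06, 9.47 and 9.06, and 9.27, 8.78, 8.85 and 8.60, in the same order. Another shared by them read 9.97, 10.41, 9.82 and 9.44, and 9.62, 9.17, 9.20 and 8.95. On both, N154S control cells read above dsDNA-treated vector cells, unlike on the probe set of Top2a alone.

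Tk1, thymidine kinase 1, a replication gene outside the member list and picked after its values were seen, read 7.96, 8.02, 7.36 and 7.27 in control cells and 7.78, 7.04, 7.22 and 6.98 after dsDNA. Its mutant arrays lay below both vector arrays, and its fitted difference from vector in N154S was -0.58 (limma, adjusted p = 0.276).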
